A study of Rattus norvegicus with 10 samples.

Results

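The myogenic regulatory factors were followed as Pax7, Myf5, Myod1, Myog, Myf6 and Mef2c, chosen as the rows of the expression table that carry one of these 6 symbols. Of the 6 symbols, 5 had a row, 1 transcript each, out of 17221 transcripts of 16497 symbols; Mef2c was not analysed here because no row carried its symbol. The tissue was dorsal muscle taken just below the skin. The donors were female Wistar rats in which arthritis had been induced with type II collagen, as a stand-in for rheumatoid arthritis. All 10 rats had the disease, so no group was healthy. RA_0 was sampled before any therapy. AP_1h and AP_34d were taken after 1 h and after 34 days of AP therapy, the arm that the study's methods describe as mechanical stimulation: a short needle was put through the skin and turned, at points on the lower back and below the knee. PLA_1h and PLA_34d are the matching placebo groups, with sterile saline given into the peritoneum and therefore not at the sampled site. Each group held 2 rats, 1 library per rat, and the sources used here give no age. Polyadenylated RNA was sequenced, and levels are given as CPM, counts scaled by the authors to library size with TMM factors; the transcript lengths needed to compare levels between genes were not at hand, so levels are compared between samples only.

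Myogenic regulatory factors are basic helix-loop-helix transcription factors that bind E-boxes together with E proteins and switch on muscle genes. Pax7, a paired-box factor, marks satellite cells, the stem cells that lie on muscle fibres; Myf5 and Myod1 commit these cells to the muscle lineage, Myog drives their fusion and differentiation, and Myf6, also called MRF4, is the member best known in mature fibres. In adult muscle Myog is also known to be raised after loss of the nerve supply, together with subunits of the acetylcholine receptor and with the ubiquitin ligases Trim63 and Fbxo32.

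Myog and Myf6 both had their highest group mean in AP_1h, and Myf5 is the close neighbour of Myf6, so the promoters of these 3 genes are shown. On rn4, the build of the table, Myf5 (NM_001106783, minus strand) lay at chr7:46189255-46192487 and Myf6 (NM_013172, minus strand) at chr7:46199971-46201867, with 7483 bases between them. Myog (NM_017115) lay at chr13:47243711-47246301 and Myod1 (NM_176079) at chr1:96910189-96912900, both on the plus strand, and Pax7 (NM_001191984) at chr5:158547764-158648053 on the minus strand. No other transcript of the table overlapped any of the 5. The promoters, 250 bases before to 50 bases after the start of the gene, are from RefSeq on GRCr8, another build than that of the table, and are read 5′ to 3′ on the strand of the gene. They lie at chr13:48297226-48297525 (Myog, plus), chr7:44701264-44701563 (Myf6, minus) and chr7:44692589-44692888 (Myf5, minus). Capitals mark matches to the E-box CANNTG and to the consensus of MEF2, a family of partners of these factors, searched on both strands.
Myog: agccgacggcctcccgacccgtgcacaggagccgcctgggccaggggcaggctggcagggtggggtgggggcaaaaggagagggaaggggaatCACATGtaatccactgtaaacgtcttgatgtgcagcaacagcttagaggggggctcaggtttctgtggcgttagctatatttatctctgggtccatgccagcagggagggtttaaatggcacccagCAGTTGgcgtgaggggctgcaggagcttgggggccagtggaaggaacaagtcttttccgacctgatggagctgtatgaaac
Myf6: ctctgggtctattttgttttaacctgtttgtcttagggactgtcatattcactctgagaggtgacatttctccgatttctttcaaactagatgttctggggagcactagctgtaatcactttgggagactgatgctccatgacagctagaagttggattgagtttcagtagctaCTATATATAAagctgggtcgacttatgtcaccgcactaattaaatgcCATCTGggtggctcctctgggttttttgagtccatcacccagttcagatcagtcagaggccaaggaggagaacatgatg
Myf5: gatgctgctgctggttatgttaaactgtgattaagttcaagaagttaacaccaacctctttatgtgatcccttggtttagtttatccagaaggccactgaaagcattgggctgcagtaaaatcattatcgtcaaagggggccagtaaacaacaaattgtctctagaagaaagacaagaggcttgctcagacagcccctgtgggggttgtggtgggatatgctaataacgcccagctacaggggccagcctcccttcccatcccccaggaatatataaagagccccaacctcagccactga
The Myog promoter held 2 E-boxes starting at -157 and -31 from the start of the gene, and no exact MEF2 match. Its stretch ctatatttat differs only in the last base from the consensus searched, YTAWWWWTAR (Y is C or T, W is A or T, R is A or G). Near matches of this kind were not counted, so the search does not show that a MEF2 site is absent. The Myf6 promoter held 1 E-box at -29 and 1 MEF2 match at -76, and the Myf5 promoter held neither. No matches overlapped. An E-box was present in 72.1% of the 33469 rat promoters of the same length and a MEF2 match in 3.29%. These matches describe letters, and no binding was measured. Of the 5 factors, 4 had a promoter entry.

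The libraries held 5371687 to 8899521 reads, so 1 CPM stood for 4.19 to 10.1 reads. In 10 libraries the 8 skeletal muscle markers with a row (Acta1, Ckm, Myh4 and others) summed to 105845 to 284900 CPM, so the label of the tissue held. Library PLA_34d replicate 1 stood apart: its B cell markers summed to 284 CPM against 0 to 9.38 CPM in the other 9 libraries, and its T cell markers to 207 CPM against 6.30 to 29.3 CPM. Differences that involve PLA_34d are also given without it. The summed level of 8 slow-fibre markers (Myh7, Tnnt1, Tnni1 and others) ranged from 1027 to 21084 CPM over the libraries. In bulk tissue, fewer cells of a type and less RNA per cell cannot be told apart. Each test is a limma fit of log2(CPM + 1) over 10259 transcripts, those with 1 CPM or more in both rats of some group, and a transcript is called where its p, adjusted by Benjamini and Hochberg's method, is under 0.05. All 5 factors passed this filter, Pax7 through PLA_34d alone.

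By group mean, Myf6 and Myog were highest 1 h after AP therapy and lowest before therapy and after 34 days of placebo, but neither passed the adjusted threshold, and neither did the other 3 factors in any of the 9 tests. The background of calls was as low: limma called 3 of 10259 transcripts (0.0292%) between AP_1h and RA_0 and 0 (0%) in each of the other 8 tests. At an unadjusted p under 0.05, 2 of the 5 factors, Myf6 and Myog, stood out between AP_1h and RA_0, where 8.89% of all transcripts did. The same 2 stood out for AP against PLA over both times (5.72% of all transcripts) and over the 5 groups (4.98%), and Myf6 alone for AP_1h against PLA_1h (4.04%). The largest mean differences were 5.37-fold for Myf6 and 8.72-fold for Myog, both between AP_1h and RA_0.

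**Figure D1:**
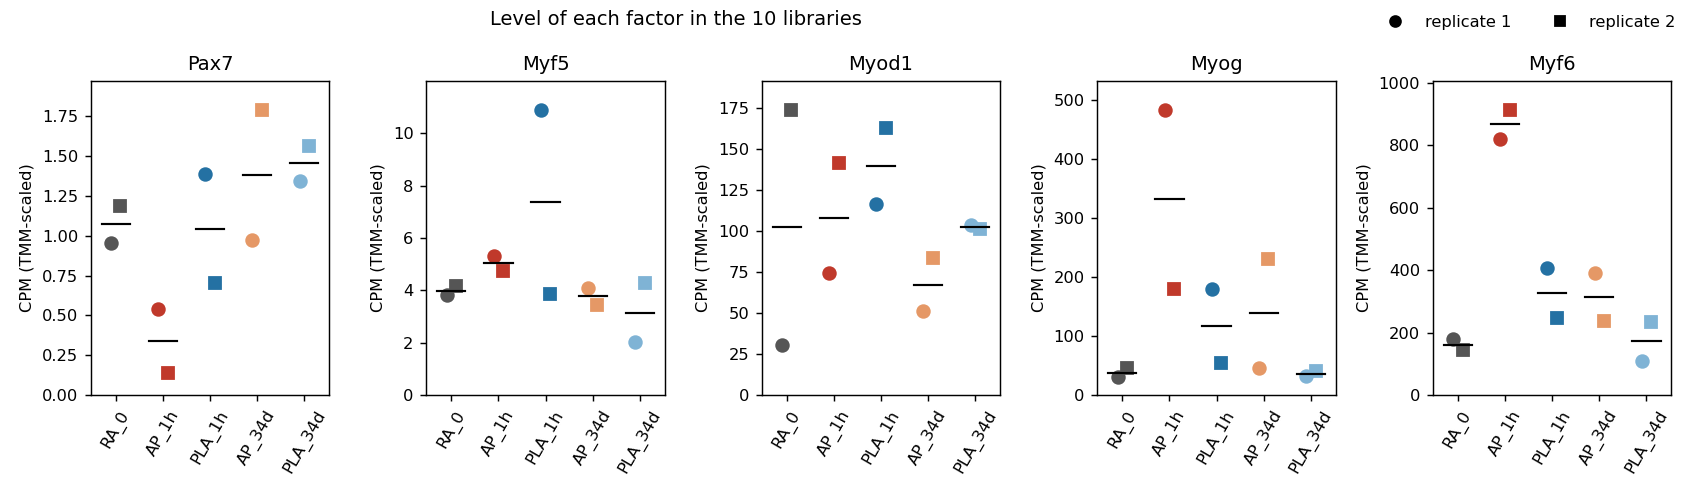
CPM (linear axes from 0, one scale per gene) of the 5 factors in the 10 libraries, by group; circles are replicate 1, squares replicate 2 and the line is the mean of the 2 libraries. Both AP_1h libraries lie above the other 8 for Myf6 (821 and 915 CPM) and the RA_0 libraries span the others for Myod1 (30.8 and 174 CPM).

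Myf6 was read at 179 and 144 CPM in RA_0 and at 821 and 915 CPM in AP_1h. It was at 407 and 249 CPM in PLA_1h, 390 and 237 CPM in AP_34d, and 109 and 235 CPM in PLA_34d. Both AP_1h libraries were therefore above all other libraries, and the RA_0 libraries were below both libraries of PLA_1h and AP_34d. In the order of the group means, AP_1h (868 ± 66.2 CPM, SD, n = 2) did not overlap with PLA_1h (328 ± 112 CPM), and AP_34d (314 ± 108 CPM) did not overlap with PLA_34d (172 ± 89.0 CPM). PLA_1h and AP_34d overlapped, as did PLA_34d and RA_0 (162 ± 24.9 CPM). Between 751 and 7594 reads lay behind these values.

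On the log2(CPM + 1) scale, Myf6 differed by 2.42 ± 0.44 (SE) between AP_1h and RA_0 (limma, adjusted p = 0.103). DESeq2 on the recovered reads called this difference (2.42, adjusted p = 7.56e-05), as did limma fitted to the 2 groups alone (adjusted p = 0.0172), while edgeR's quasi-likelihood test (adjusted p = 0.176) and limma-voom (adjusted p = 0.209) did not. These settings called 1.62% (DESeq2), 1.05% (the 2 groups alone), 0% and 0% of the 10259 transcripts. Over the 5 groups DESeq2 called Myf6 and Myog among 2.48% of all transcripts. Over the 20 alternatives of the processing the difference stayed between 2.27 and 2.58, with adjusted p from 7.56e-05 to 0.564.

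Beside AP_1h, the summed slow-fibre markers were at 1027 and 1205 CPM against 21084 and 10443 CPM in RA_0. Replicate 2 of PLA_1h, AP_34d and PLA_34d also had low sums, of 2006, 1997 and 1780 CPM, and held 249, 237 and 235 CPM of Myf6. Replicate 1 of PLA_1h, AP_34d and PLA_34d had sums of 4393, 11863 and 20309 CPM and held 407, 390 and 109 CPM of Myf6. The 2 lowest sums thus lay in the 2 libraries with most Myf6, and the 3 replicate 2 libraries lay between AP_1h and RA_0 in both measures. Within groups the order was mostly the other way. The rat with the higher sum held more Myf6 in RA_0, AP_1h, PLA_1h and AP_34d, and less in PLA_34d. The part of fibre type in the difference between AP_1h and RA_0 was not tested. Fast-fibre markers summed to 90091 and 157795 CPM in AP_1h and to 164114 and 106905 CPM in RA_0, which overlap.

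Against the placebo of the same time, Myf6 was 1.44 ± 0.44 higher in AP_1h on the log2 scale (limma, adjusted p = 0.814) and 0.92 ± 0.44 higher in AP_34d (adjusted p = 0.856). Over both times the difference was 1.18 ± 0.31 (adjusted p = 0.545), and all 20 alternatives kept its direction (0.91 to 1.45), none of them with a call. The difference between the effects at the 2 times was not past the threshold (limma, -0.53 ± 0.63, adjusted p = 1.000). Without PLA_34d replicate 1, the difference at 34 days was 0.37, that over both times 0.91 and that between the effects -1.07. Against RA_0, PLA_1h was 0.98 ± 0.44 higher (adjusted p = 1.000) and AP_34d 0.92 ± 0.44 higher (adjusted p = 0.967), both without overlap of the libraries, which also held for 29.4% and 32.3% of all transcripts. The 4 comparisons with RA_0 share its 2 libraries.

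Myog was read at 30.1 and 45.9 CPM in RA_0 and at 483 and 179 CPM in AP_1h. It was at 179 and 54.1 CPM in PLA_1h, 46.1 and 231 CPM in AP_34d, and 31.9 and 40.8 CPM in PLA_34d. The high values thus came from both AP_1h libraries, PLA_1h replicate 1 and AP_34d replicate 2, and the spread within the 3 groups was wide, at 2.70-, 3.32- and 5.01-fold between rats of one group. In the order of the group means, AP_1h (331 ± 215 CPM, SD, n = 2), AP_34d (139 ± 131 CPM) and PLA_1h (117 ± 88.5 CPM) overlapped with their neighbours. PLA_1h did not overlap with RA_0 (38.0 ± 11.2 CPM), which overlapped with PLA_34d (36.3 ± 6.32 CPM).

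Between AP_1h and RA_0, Myog differed by 2.95 ± 0.77 (SE) on the log2 scale (limma, adjusted p = 0.252). DESeq2 called it (3.11, adjusted p = 0.00276), as did limma on the 2 groups alone (adjusted p = 0.00975), and edgeR's quasi-likelihood test (adjusted p = 0.265) and limma-voom (adjusted p = 0.362) did not. Leaving out AP_1h replicate 1 lowered the difference to 2.24, and leaving out AP_1h replicate 2 raised it to 3.67. The other differences were smaller. AP_1h against PLA_1h gave 1.57 ± 0.77 (adjusted p = 1.000), AP_34d against PLA_34d 1.50 ± 0.77 (adjusted p = 0.865), and AP against PLA over both times 1.53 ± 0.54 (adjusted p = 0.751), by limma. The difference at 1 h was 0.71 without PLA_1h replicate 2 and 2.42 without PLA_1h replicate 1. The difference at 34 days was 0.35 without AP_34d replicate 2 and 2.65 without AP_34d replicate 1, and leaving out PLA_34d replicate 1 gave 1.32. The difference over both times became 0.96 when AP_34d replicate 2 was left out and 1.45 when PLA_34d replicate 1 was.

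**Figure D2:**
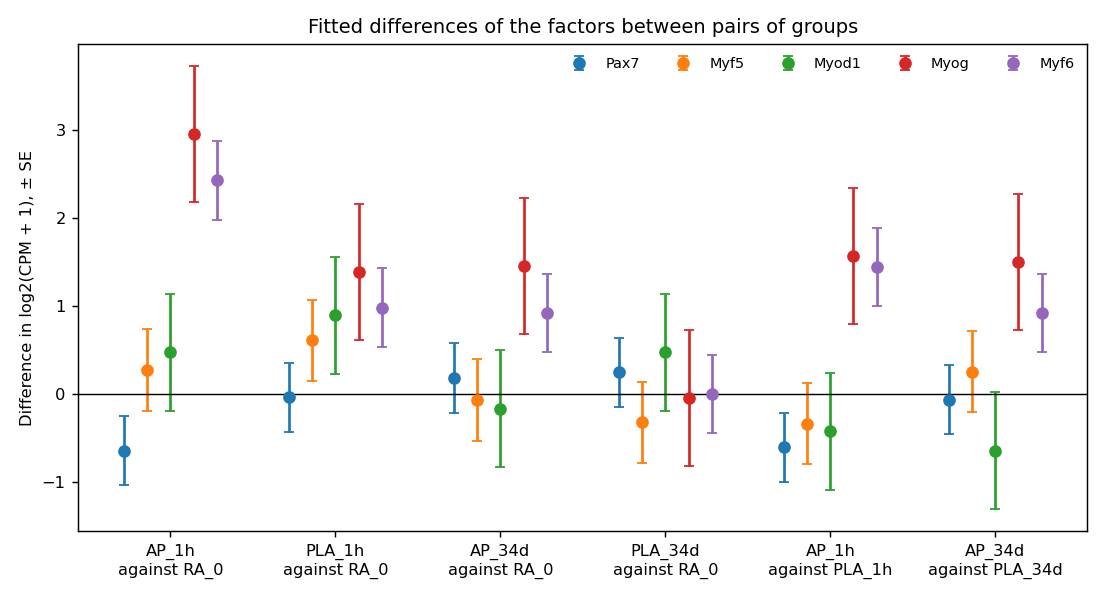
Difference in log2(CPM + 1) between pairs of groups (vertical axis) for the 5 factors, with bars of 1 SE from the limma fit over the 10 libraries. Myog (2.95) and Myf6 (2.42) stand highest between AP_1h and RA_0 and lie near 0 between PLA_34d and RA_0.

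The early factors differed less. Myod1, which commits cells to the muscle lineage, was at 30.8 and 174 CPM in RA_0, the lowest and the highest of the 10 libraries. It was at 74.3 and 141 CPM in AP_1h, 117 and 163 CPM in PLA_1h, 51.2 and 83.5 CPM in AP_34d, and 104 and 101 CPM in PLA_34d. The rats before therapy thus differed 5.66-fold from each other, and no group could be set apart from RA_0 (smallest limma p of the 9 tests 0.207, adjusted p = 0.883 or more). The largest difference, 0.90 ± 0.66 between PLA_1h and RA_0, turned to -0.34 without RA_0 replicate 1 and grew to 2.13 without RA_0 replicate 2. AP_34d lay below PLA_34d without overlap (limma, -0.64 ± 0.66, adjusted p = 0.932, and -0.62 without PLA_34d replicate 1), as did 15% of all transcripts.

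Myf5, the earliest of the 4 helix-loop-helix factors in development, was at 3.82 and 4.16 CPM in RA_0 and at 5.30 and 4.76 CPM in AP_1h. It was at 10.9 and 3.86 CPM in PLA_1h, 4.10 and 3.44 CPM in AP_34d, and 2.02 and 4.26 CPM in PLA_34d, from 16 to 110 reads per library. All but PLA_1h replicate 1 thus lay between 2.02 and 5.30 CPM. The difference of 0.61 ± 0.46 between PLA_1h and RA_0 (limma, adjusted p = 1.000) turned to -0.04 without that library. The AP_1h libraries were above those of RA_0 (0.27 ± 0.46, adjusted p = 0.909), as were those of 20.6% of all transcripts. Myf5 did not share the high AP_1h values of its neighbour Myf6, with means 1.26-fold and 5.37-fold those of RA_0.

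Pax7 was at the limit of detection, with 1 to 14 reads per library. It was read at 0.954 and 1.19 CPM in RA_0, 0.541 and 0.140 CPM in AP_1h, and 1.39 and 0.702 CPM in PLA_1h. AP_34d held 0.977 and 1.79 CPM and PLA_34d held 1.35 and 1.56 CPM. The AP_1h libraries, with 5 and 1 reads, were the lowest 2 of the 10. The difference from RA_0 was -0.64 ± 0.39 on the log2(CPM + 1) scale, which understates changes at such levels (limma, adjusted p = 0.693). Fitted to the reads it was -1.69 by limma-voom, -1.62 by DESeq2 and -1.56 by edgeR, none of them called, and 21% of all transcripts likewise lay lower without overlap. No change of Pax7 was detectable at this depth. The 8 satellite cell markers, Pax7 and Myf5 among them, summed to 97.5 and 114 CPM in AP_1h and to 153 and 157 CPM in RA_0, each from the lower to the higher library. They were also below RA_0 in AP_34d (104 and 117 CPM) and PLA_1h (118 and 129 CPM), and PLA_34d held 132 and 187 CPM.

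Between AP_1h and RA_0 the libraries of 4 of the 5 factors did not overlap, as for 41.6% of all transcripts: Myf6, Myog and Myf5 lay higher in AP_1h (20.6% of all transcripts did) and Pax7 lower (21%). Between AP_34d and RA_0 and between PLA_1h and RA_0 it was 2 of 5, Myog and Myf6, both higher than in RA_0 (16.4% and 15.8% of all transcripts). For Myog in AP_34d this was nearly a tie, with 46.1 CPM in AP_34d replicate 1 against 45.9 CPM in RA_0 replicate 2. That difference was 1.45 ± 0.77 on the log2 scale and 0.30 without AP_34d replicate 2. Between PLA_34d and RA_0 only Pax7 did not overlap, higher in PLA_34d (16.8%), by 0.25 ± 0.39 on the log2 scale and by 0.31 without PLA_34d replicate 1. Pax7 passed the filter through PLA_34d alone, so this direction partly follows from the filter and is no result about Pax7. It rested on 12 and 11 reads in PLA_34d against 4 and 8 in RA_0. Between the therapies at 1 h, Myf6 lay higher in AP_1h (13.9%) and Pax7 lower (16.7%), which made 2 of 5 against 30.6% of all transcripts. At 34 days, Myog and Myf6 lay higher in AP_34d (16%) and Myod1 lower (15%), which made 3 of 5 against 31%. With 5 members these counts are too small to be read against the background.

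Over the 10 libraries Myog and Myf6 had a Pearson's r of 0.754 (permutation p = 0.0128, adjusted over the 10 pairs of factors 0.128) and Spearman's rho of 0.758 (permutation p = 0.0149, adjusted 0.149). The permutations moved values freely across the 5 groups, so these p-values do not separate differences between groups from variation within them. Without the 2 libraries farthest from the median of Myog r was 0.820. Within groups the relation was not seen: the deviations from the group means had r of -0.0915, and the rat with more Myog was also the rat with more Myf6 in 2 of the 5 groups. With 2 rats a group the deviations mirror each other, so their r rests on 5 independent values. None of the 10 pairs passed the adjusted threshold. Pax7 and Myf6 had r of -0.689 (permutation p = 0.0258, adjusted 0.129), which went to -0.0642 without the 2 libraries farthest from the median of Pax7 and thus rested on those libraries. Myod1 had r between -0.104 and 0.140 with the other 4.

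**Figure D3:**
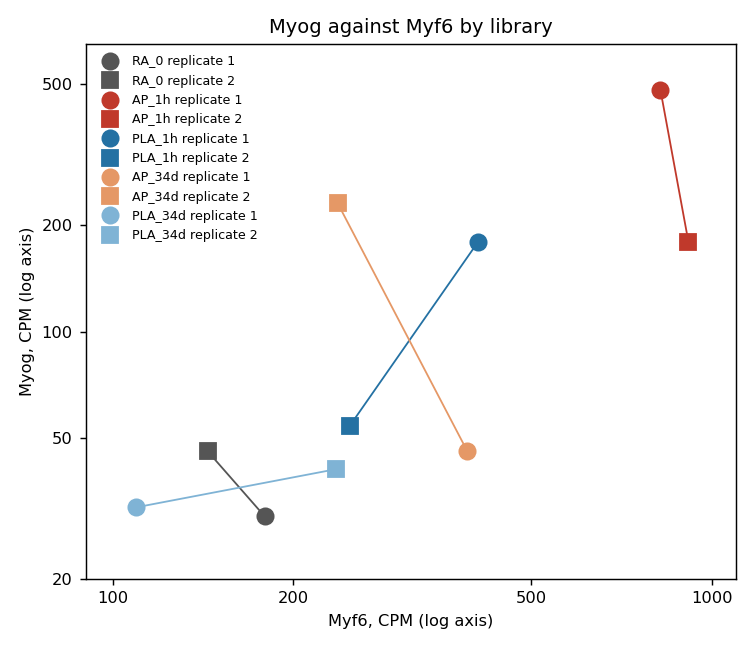
Myog against Myf6 in CPM, both on log axes, with 1 point per library and a line joining the 2 rats of a group. The AP_1h rats lie at the right (821 and 915 CPM of Myf6), and the joining lines run up in PLA_1h and PLA_34d and down in RA_0, AP_1h and AP_34d.

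The transcripts of another gene most like each factor, up to 3 for each, over the 10 libraries, by Pearson's r on log2(CPM + 1), are given as a description of the 10259 transcripts. Those most like Myog were Sat1 (r = 0.975), the enzyme that acetylates spermidine and spermine, Gadd45a (0.943), a stress-response gene, and LOC100125364 (0.942). Gadd45a was at 38.9 and 87.9 CPM in RA_0, at 1109 and 526 CPM in AP_1h and at 355 and 107 CPM in PLA_1h. It thus had the AP_1h rats in the same order as Myog. Those most like Myf6 were Ankrd49 (0.967), Slc7a8 (0.946), an amino acid transporter, and Rnf139 (0.941), a ubiquitin ligase. Those most like Myf5 included Chrna1 (0.889) and Tmem8c (0.837), those most like Myod1 were Zfp503 (0.914), Slc16a12 (0.890) and Pcdh20 (0.854), and those most like Pax7 were Pygo1 (0.942), Clmn (0.940) and Rell1 (0.920). Pygo1 and LOC100125364 overlap other transcripts, so their reads are uncertain.

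Myf5, Chrna1 and Tmem8c were high in the same library. In PLA_1h replicate 1 Chrna1, the alpha subunit of the muscle acetylcholine receptor, was at 192 CPM against 6.62 to 128 CPM in the other 9 libraries, and Tmem8c, the older symbol of the fusion factor myomaker, was at 20.02 CPM against 0.337 to 5.47 CPM. In the same library Chrng, the embryonic gamma subunit, was at 24.2 CPM against 0.673 to 2.34 CPM, and Chrnd, the delta subunit, at 189 CPM against 9.38 to 82.7 CPM. The adult epsilon subunit Chrne was at 31.4 CPM there, within its range of 10.2 to 38.8 CPM in the other 9. These subunits were picked after their values had been seen.

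The genes around the factors were taken from 5 lists of 99 genes, of which 85 had a row and 73 transcripts were tested. None of the 73 was called by limma in any of the 9 tests, with adjusted p of 0.191 at the least, and 11 had an unadjusted p under 0.05 over the 5 groups, where 4.98% of all transcripts did.

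The list of differentiation and denervation targets held 9 of these 11. Between AP_1h and RA_0, 6 of its 24 transcripts had an unadjusted p under 0.05 and were higher (Cdkn1a, Musk, Trim63, Chrna1, Fbxo32 and Ncam1), and 1 was lower, Myh3, the embryonic myosin heavy chain (limma, -1.72 ± 0.36, adjusted p = 0.191), where 8.89% of all transcripts had such a p. DESeq2 called 4 of them, Cdkn1a, Musk and Trim63 higher and Myh3 lower, among 1.62% of all transcripts. The median over the 24 was 0.17 against 0.002 over all transcripts. The placebo at 1 h gave a like count: between PLA_1h and RA_0, 7 of the 24 had an unadjusted p under 0.05, all higher (2.59% of all transcripts), with a median of 0.20. DESeq2 called 2 of these, Cdkn1a and Ncam1, among 0.0975% of all transcripts. Trim63, also known as MuRF1, the ubiquitin ligase of muscle atrophy, was at 306 and 276 CPM in RA_0, 2666 and 680 CPM in AP_1h, and 468 and 646 CPM in PLA_1h. It was at 1375 and 2296 CPM in AP_34d and 196 and 364 CPM in PLA_34d. The 4 AP libraries were above the 4 of PLA, but narrowly at 1 h, with 680 CPM in AP_1h replicate 2 against 646 CPM in PLA_1h replicate 2. The share of all transcripts that separate in this way was not counted, and Trim63 was named for the smallest p of its list over the 5 groups. Its difference over both times was 2.01 ± 0.43 (limma, adjusted p = 0.387), and 1.79 without PLA_34d replicate 1. DESeq2 called Trim63 and Fbxo32, the other ligase, in that comparison, among 0.624% of all transcripts. Fbxo32 overlapped at 1 h, with 164 and 39.5 CPM in AP_1h against 78.9 and 93.0 CPM in PLA_1h. At 34 days it was at 148 and 490 CPM in AP_34d against 37.1 and 29.9 CPM in PLA_34d. That difference was 2.98 ± 0.66 by limma (adjusted p = 0.756), and 3.13 without PLA_34d replicate 1. DESeq2 also called both ligases for AP_34d against PLA_34d (87 of 10259 transcripts) and against RA_0 (33 of 10259).

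Cdkn1a, the cell cycle inhibitor p21 that is raised when myoblasts stop dividing, was at 20.3 and 81.4 CPM in RA_0 and at 368 and 286 CPM in AP_1h. It was at 369 and 462 CPM in PLA_1h, 243 and 403 CPM in AP_34d, and 77.1 and 277 CPM in PLA_34d. Its PLA_1h libraries were thus no lower than those of AP_1h (limma, AP_1h and PLA_1h against RA_0 2.96 ± 0.68 and 3.30 ± 0.68, adjusted p = 0.233 and 1.000). Contractile and metabolic targets such as Ckm, Acta1 and Des showed no unadjusted p under 0.05 in any test. At 34 days, 20 of the 24 were higher in AP than in placebo, with a median of 0.52 against 0.003 over all transcripts, and without PLA_34d replicate 1 it was 15 of 24 and 0.17.

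**Figure D4:**
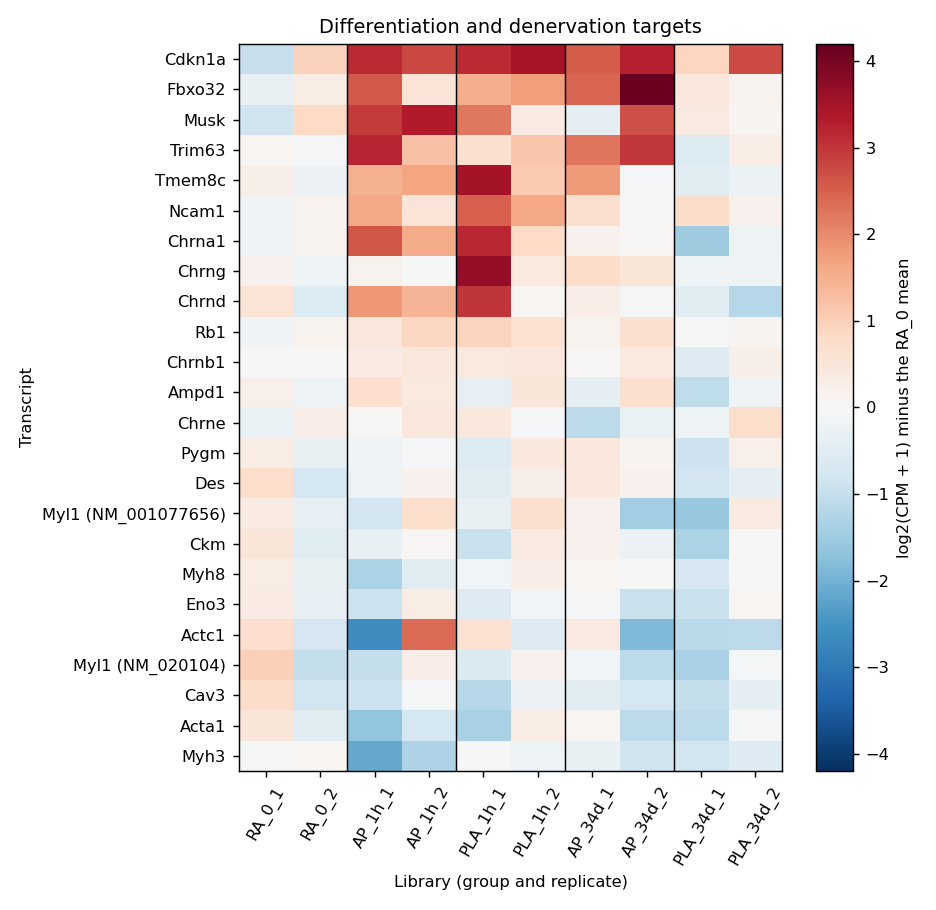
Heat map of log2(CPM + 1) minus the mean of the 2 RA_0 libraries for the 24 tested transcripts of the differentiation and denervation list (rows) in the 10 libraries (columns). Cdkn1a, Fbxo32, Musk and Trim63 lead the rows, PLA_1h replicate 1 is high for Chrng, Chrna1 and Chrnd, and Myh3 is low in both AP_1h libraries.

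Over the 5 groups the other lists held fewer genes with an unadjusted p under 0.05. These were 1 of 13 cooperating factors, 0 of 14 inhibitors, 0 of 15 satellite cell genes and 1 of 7 ligands and antagonists. Between AP_1h and RA_0 the counts were 3 of 13, 2 of 14, 5 of 15 and 3 of 7, beside 7 of 24 targets. In that comparison the target list thus did not stand apart by its share. Of the 13 tested factors that cooperate with the family, 0 were called and 3 were lower in AP_1h than in RA_0 at an unadjusted p under 0.05 (Nfix, Mef2d and Vgll2), where 8.89% of all transcripts had such a p in either direction. Nfix, a nuclear factor of fetal and regenerating muscle, was at 76.8 and 81.2 CPM in RA_0, and at 27.2 and 50.8 CPM in AP_1h (limma, -1.06 ± 0.37, adjusted p = 0.430). Tead1, a partner of the Hippo pathway co-activators, was at 18.8 and 14.6 CPM against 8.32 and 6.72 CPM (-1.05 ± 0.58, adjusted p = 0.659). Of the 14 tested inhibitors 0 were called, and those with the smallest p over the groups, the class II histone deacetylase Hdac5 and the Notch target Heyl, were both lower in AP_1h (limma, -0.77 ± 0.32 and -0.98 ± 0.39, adjusted p = 0.529 and 0.518). In this comparison the medians of the 2 lists were both -0.17, against 0.002 over all transcripts. Neither kept its sign over the 20 alternatives, with -0.67 to 0.095 for the cooperating factors and -0.61 to 0.18 for the inhibitors.

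Of the 15 tested satellite cell genes 0 were called by limma. Notch3, a receptor that keeps satellite cells quiescent, was at 48.9 and 76.9 CPM in RA_0 and 33.5 and 17.1 CPM in AP_1h (limma, -1.32 ± 0.43, adjusted p = 0.380). Which cells of the bulk tissue held this RNA was not measured. Met, the receptor of hepatocyte growth factor that activates satellite cells, was at 8.35 and 11.9 CPM in RA_0 and above both values in each of the other 8 libraries (17.5 to 76.9 CPM). DESeq2 called Met between AP_34d and RA_0, among 0.322% of all transcripts, where limma gave 1.89 ± 0.55 (adjusted p = 0.926). Sdc4 was also higher, and Itga7 and Sdc3 lower, in AP_1h at an unadjusted p under 0.05, and the median of the list in this comparison was -0.38.

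Of the ligands and antagonists, 7 were tested and 0 called. Wnt5a, a non-canonical Wnt ligand, was at 6.68 and 6.83 CPM in RA_0 and at 1.62 and 2.099 CPM in AP_1h (limma, -1.44 ± 0.38, adjusted p = 0.252). The other 6 libraries lay between 2.93 and 7.11 CPM, above both AP_1h libraries. Rspo3, an enhancer of Wnt signalling, was at 13.6 and 8.02 CPM in RA_0 and at 1.84 and 2.099 CPM in AP_1h, but it was as low in replicate 2 of PLA_1h and PLA_34d (1.05 and 1.28 CPM). Igf2 was higher in AP_1h than in RA_0 at an unadjusted p under 0.05 (limma, 1.89 ± 0.77, adjusted p = 0.524).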

How the data were processed

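Muscle under the skin of 10 arthritic rats (5 groups of 2) was sequenced by the authors. Per the labels and methods, adapters were trimmed with cutadapt 1.2.1, reads aligned to rn4 with Bowtie2 2.1.0 and counted per transcript with HTSeq 0.5.4p3; whether strand was used is not stated. What the authors deposited is a signal, CPM scaled with edgeR 3.4.2 TMM factors. They were whole multiples of 1 read within 0.01 reads for 100% of values, so the reads were recovered.

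Here log2(CPM + 1) was fitted with limma 3.58.1 (mean trend; 5 residual degrees of freedom, 5.14 from the prior) over 10 libraries in R 4.3.3; figures used matplotlib 3.10.9. With 2 rats a group, the precision is limited by the spread between rats; the log scale understates changes of low transcripts. A differing model, limma-voom, was the study's own test, there with a nominal p under 0.05 and a fold change of 2 or more. Here limma-voom was run on the reads, as were edgeR 4.0.16 and DESeq2 1.42.0, with the adjusted threshold. Its unadjusted p between AP_1h and RA_0 was 0.000545 for Myf6 (log2 difference 2.42) and 0.00522 for Myog (2.95). By limma-voom, 826 of 10259 transcripts had an unadjusted p under 0.05 there. Further settings were a pseudocount of 0.25 or of 4, no filter, quantile normalization, the 20 most abundant transcripts left out, the compared groups alone, replicate numbers as a block, and leaving out single libraries. The fitting was tested on simulated data. The members and lists were chosen with earlier results of these data known. All 5 factors, the 2 genes per list with the smallest p over the groups and any called gene are named. One transcript that the rule on likeness would name is not reported here.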

Additional observations from a re-analysis of the deposited data

How the results depend on the processing

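Among the 9 tests of the 5 factors, 0 calls by limma became 2 (Myf6 and Myog) with DESeq2 and with the compared groups alone for AP_1h against RA_0, and 2 with DESeq2 over the 5 groups; no other alternative gave a call, edgeR and limma-voom included. The cause was not tested. Of the 40 differences of the 5 factors (8 comparisons each), 20 turned sign under at least 1 of 20 alternatives, 40 of 800 values in all. In the 21 differences that were not followed setting by setting, 37 of 420 values turned. In the 19 that were, 377 of 380 values kept their direction. Those that turned were the difference of Myf6 between the effects at the 2 times, which ranged from -1.07 to 0.024 when single libraries were left out, Myod1 in PLA_1h against RA_0, which ranged from -0.34 (without RA_0 replicate 1) to 2.13 (without RA_0 replicate 2) likewise, and Myf5 in the same comparison, from -0.036 (without PLA_1h replicate 1) to 1.26. With each library left out, Myf6 between AP_1h and RA_0 ranged from 2.27 to 2.58 and Myog from 2.24 to 3.67, with adjusted p from 0.0818 to 0.564 and from 0.164 to 0.882. A block for the replicate number gave 0 calls in all 9 tests, so this block changed the call of no factor. The deviations of same-numbered rats from their group means had correlations from -0.464 to 0.446 over 10 pairs of groups. With 2 rats a group, values spread this widely cannot decide whether the numbers pair the samples. At 1 to 14 reads per library Pax7 is limited by depth.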

Other observations

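In each of the 5 groups the rat with more Myog also had more Pax7, although the 2 factors had an r of -0.294 over the 10 libraries. The deviations of both from their group means had an r of 0.988. With 2 rats a group the deviations mirror each other, so this r rests on 5 independent values. Pax7 rested on 1 to 14 reads per library, the pair was picked out of 10 after its values had been seen, and the relation was not tested.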
